A study of Mus musculus with 4 samples.

Results

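The genes described here encode the nuclear-encoded subunits of respiratory complex I (NADH:ubiquinone oxidoreductase). They were taken as the 36 listed subunits whose symbols begin with Nduf, read from the probe sets that the platform annotation gives a single symbol. By that rule 33 of the 36 were read, through 67 probe sets, among 12393 genes with such a probe set in all. Ndufa11, Ndufb4 and Ndufs6 are met only by probe sets that carry several symbols and have no value here. The list does not hold Ndufb1 and 5 Ndufaf assembly factors, whose symbols also begin with Nduf, and they are treated apart. Of the 7 core subunits that the nucleus encodes, 6 were analysed here, and the core subunits that mitochondrial DNA encodes were not analysed here.

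The arrays compared gonadal white adipose tissue (WAT) of Fsp27 knockout (FSP27-deficient) and wild-type C57BL/6J mice, all male and 3 months of age. FSP27, the product of Cidec, is a lipid droplet protein of fat cells. RNA of 5 mice of a genotype made 1 pool, and each pool was hybridised to 2 Affymetrix mouse arrays, so that 4 arrays were measured. The 2 arrays of a genotype are repeat hybridisations of 1 pool, and every p-value below measures technical spread only, not the spread between mice. An exact permutation test over 4 arrays cannot go below p = 0.333, so each test rests on a model fitted across all genes. The sources used here do not describe which part of the gene was removed. The tissue is a mixture of cells, and more cells of a type cannot be told apart from more RNA per cell.

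Complex I takes electrons from NADH and hands them to ubiquinone, and it pumps protons across the inner mitochondrial membrane as it does so. A peripheral arm in the matrix holds the N module, which oxidises NADH, and the Q module, which passes the electrons to ubiquinone, and a membrane arm pumps the protons. Core subunits carry the flavin, the iron-sulfur clusters and the proton channels, whereas the accessory subunits surround them and are needed for assembly or stability. Fat that burns fuel for heat is rich in mitochondria, whereas white fat holds fewer.

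Cidec itself had signals of 8564 and 8949 in FSP27-deficient WAT, against 20491 and 18255 in wild-type WAT, a log2 fold change of -1.14 (SE 0.15, adjusted p = 5.7e-04 from limma with Benjamini-Hochberg adjustment). A signal remained on both knockout arrays, and no source used here says where the probes lie relative to the deletion. The adipocyte marker Adipoq was bright throughout, at 50496 and 54068 in FSP27-deficient WAT, against 44423 and 48824 in wild-type WAT. The median signal of an array lay at 181 and 165 in FSP27-deficient WAT, against 193 and 172 in wild-type WAT, and between 62.2 and 66.0% of probe sets reached a signal of 100.

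Most complex I transcripts read here were higher in FSP27-deficient WAT. Of the 33 genes, 28 rose and 0 fell at an adjusted p under 0.05 from limma, and the remaining 5 (Ndufa2, Ndufa7, Ndufb7, Ndufc2 and Ndufs4) did not pass. Among all 8522 genes tested (mean signal 100 or above), 5.79% were called higher and 6.51% lower. The subunits are bright genes, with the dimmest at a mean signal of 2110, and among the 1014 genes at least that bright 25.6% were called higher. Fold changes are given as differences of log2(signal + 16), FSP27-deficient minus wild-type, a scale that hardly compresses signals of this size. On it the median of the subunits was 0.86 (range 0.37 to 1.33), beside -0.08 over all genes tested and 0.11 over the equally bright genes.

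Every one of the 33 subunits had both FSP27-deficient arrays above both wild-type arrays, a pattern that 22.7% of all genes tested showed. The median ratio of mean signals was 1.82. By the fold criterion of the methods, at least 0.50 on the log2 scale of the mean signals with the duplicates in one direction, 30 of the 33 were higher and 0 were lower, against 14.5% of all genes higher. In 25 of them each of the 4 pairings of a knockout with a wild-type array passed it, as in 7.03% of all genes. These shares are over all genes tested, and shares over the equally bright genes were not computed.

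The number of calls depended on single arrays and on the fit. Without wild-type replicate 1 the count was 15, where 2.52% of all genes were called higher, and the subunits that lost their call were Ndufa5, Ndufa6, Ndufa8, Ndufa9, Ndufa12, Ndufa13, Ndufb3, Ndufb6, Ndufb8, Ndufb11, Ndufs3, Ndufv2 and Ndufv3 (adjusted p from 0.054 to 0.32). Without wild-type replicate 2 it was 19, where 3.16% of all genes were called higher, and Ndufa1, Ndufa5, Ndufa6, Ndufa13, Ndufb6, Ndufb10, Ndufb11, Ndufs5 and Ndufv3 lost it (adjusted p from 0.051 to 0.28). Without FSP27-deficient replicate 2 the median log2 fold change of the subunits was 0.81, and Ndufa5, Ndufa6 and Ndufa13 had 0.44, 0.50 and 0.49. Limma without a trend on the signal called 0 of the 33, where 29 had an unadjusted p under 0.05, and called 1 gene in all. No subunit turned its sign under any of the 13 alternatives. Most of these could not turn it, because the arrays did not overlap between genotypes or the setting left the fold change as it was. Only quantile normalization, median centring and the mean of probe sets could have done so.

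**Figure D1:**
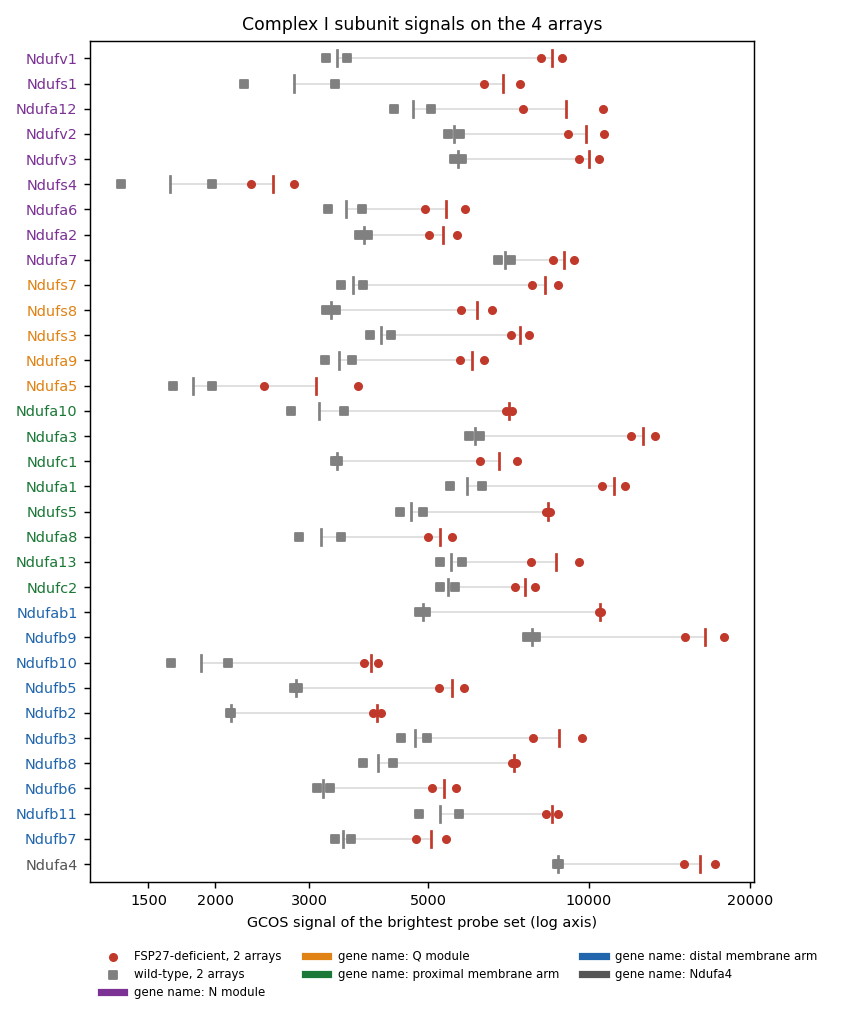
Signal of the brightest probe set of each of the 33 subunits on a log axis, with FSP27-deficient arrays as red circles, wild-type arrays as grey squares and short vertical bars at the genotype means (2 arrays each). Genes run down the page by module and fold change, and in every row both red circles lie right of both grey squares.

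The N module, the NADH-oxidising tip of the peripheral arm, held both the largest and the smallest differences of the complex. Of its 9 genes read, 6 rose and 0 fell, with a median log2 fold change of 0.81 (range 0.37 to 1.33). Ndufv1, the core subunit that binds NADH and the flavin, had signals of 8149.6 and 8889.7 in FSP27-deficient WAT, against 3222 and 3522 in wild-type WAT. The means were 8519.7 ± 523 in FSP27-deficient WAT and 3372 ± 212 in wild-type WAT (SD, n = 2 arrays each). On the log2 scale it rose by 1.33 (SE 0.16, adjusted p = 3.3e-04). Its wild-type arrays stayed below the lower knockout array by a wide margin, and it kept its call in each of the 12 alternatives fitted with a trend.

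Ndufs1, the largest subunit and the carrier of several iron-sulfur clusters, stood at 6355 and 7436 in FSP27-deficient WAT, against 2264 and 3348 in wild-type WAT. Its log2 fold change was 1.31 (SE 0.20, adjusted p = 0.0016), although its 2 wild-type arrays lay further apart than those of Ndufv1. The third core subunit of the module, Ndufv2, which carries an iron-sulfur cluster next to the flavin, gave 9145 and 10650 in FSP27-deficient WAT, against 5439 and 5732 in wild-type WAT. That is a log2 fold change of 0.82 (adjusted p = 0.0062), close to the median of the complex. The difference between Ndufv1 and Ndufv2, which sit side by side in the enzyme, was not tested.

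Among the accessory subunits of the N module, Ndufa12, Ndufv3 and Ndufa6 rose, by 0.93, 0.81 and 0.62 on the log2 scale. Ndufa6 belongs to the LYR family of proteins that hold the acyl carrier protein, and its call was also lost without a filter on low signals and after quantile normalization. The other 3 did not pass. Ndufs4, an accessory subunit whose loss causes a Leigh-like disease in mice, had 2331 and 2809.6 in FSP27-deficient WAT, against 1329.8 and 1969 in wild-type WAT. Its genotypes did not overlap, but the spread between its wild-type arrays was wide, and the log2 fold change of 0.66 (95% interval 0.18 to 1.13) had an adjusted p of 0.074. Without wild-type replicate 1, the dimmer of them, it was 0.38.

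Ndufa2, a small matrix subunit with a thioredoxin-like fold, had 5027 and 5659.8 in FSP27-deficient WAT, against 3860.5 and 3721 in wild-type WAT, a log2 fold change of 0.49 (adjusted p = 0.079). Ndufa7, another small matrix subunit, had 8584 and 9367 in FSP27-deficient WAT, against 6773 and 7142 in wild-type WAT, the smallest difference of the 33 at 0.37 (95% interval 0.02 to 0.71, adjusted p = 0.17). Neither gene's arrays overlapped between genotypes, and their SEs, 0.17 and 0.16, were not above the median SE of the subunits, 0.17. Ndufa7 was the only subunit called under none of the 13 alternatives. After quantile normalization its log2 fold change was 0.15 (adjusted p = 0.58) and that of Ndufa2 was 0.32 (adjusted p = 0.25).

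All 5 genes read of the Q module rose, with a median log2 fold change of 0.86 (range 0.73 to 1.19). Ndufs7, the core subunit with the last iron-sulfur cluster before ubiquinone, had 8744 and 7835 in FSP27-deficient WAT, against 3444 and 3781 in wild-type WAT. It had a log2 fold change of 1.19 (SE 0.16, adjusted p = 7.4e-04), the largest of this module. Ndufs8, which carries the clusters that feed the one in Ndufs7, had 6602 and 5771 in FSP27-deficient WAT, against 3371 and 3219.5 in wild-type WAT. Its log2 fold change was 0.90 (adjusted p = 0.0044), and it was called in all 12 alternatives with a trend, at 0.76 to 1.05.

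Ndufs3, a core subunit without a cluster, had 7145 and 7734 in FSP27-deficient WAT, against 3899 and 4258 in wild-type WAT. At 0.86 (SE 0.16, adjusted p = 0.0047) it was the median gene of the whole complex. Ndufa9, an accessory subunit with a bound nucleotide near the ubiquinone channel, rose by 0.83 (adjusted p = 0.0075). Ndufa5, an accessory subunit of the matrix arm, gave 2462 and 3705 in FSP27-deficient WAT, against 1969 and 1668 in wild-type WAT. This was the least even of the Q module, since 1 knockout array was only a little above the wild-type arrays, and its log2 fold change of 0.73 (adjusted p = 0.047) was 0.44 without FSP27-deficient replicate 2.

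In the proximal part of the membrane arm, next to the peripheral arm, 7 of the 8 genes read rose and 0 fell, with a median log2 fold change of 0.88 (range 0.48 to 1.19). Ndufa10, an accessory subunit related to deoxynucleoside kinases, led with 7167 and 7004 in FSP27-deficient WAT, against 2766 and 3476 in wild-type WAT. Its log2 fold change was 1.19 (SE 0.18, adjusted p = 0.0011). Ndufa3 and Ndufc1, small proteins with a single membrane helix, rose by 1.04 and 1.003, and both kept their calls in all 12 alternatives with a trend.

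The X-linked Ndufa1 rose by 0.91. Ndufs5 and Ndufa8, twin-cysteine proteins of the intermembrane space, rose by 0.85 and 0.74. Ndufa13, also known as GRIM-19, rose by 0.64 (adjusted p = 0.027), and that call was also lost without a filter and after quantile normalization. Ndufc2, a small membrane subunit, was the exception, with 7912 and 7267 in FSP27-deficient WAT, against 5276 and 5613 in wild-type WAT. Its arrays did not overlap, and its log2 fold change of 0.48 (95% interval 0.13 to 0.83, adjusted p = 0.076) lay below the median of the complex. After quantile normalization it was 0.28 (adjusted p = 0.31).

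The distal part of the membrane arm had 9 of 10 genes read called higher and 0 lower, with a median log2 fold change of 0.90 (range 0.55 to 1.10). Ndufab1, the mitochondrial acyl carrier protein, which also serves mitochondrial fatty acid synthesis, had 10525 and 10466 in FSP27-deficient WAT, against 4819.5 and 4961 in wild-type WAT. Both pairs of duplicates were close together, and the log2 fold change was 1.10 (SE 0.16, adjusted p = 8.8e-04). Ndufb9, a further LYR protein that holds an acyl carrier protein, rose by 1.07, and Ndufb10, a twin-cysteine subunit, rose by 1.06.

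Ndufb5, Ndufb2, Ndufb3, Ndufb8, Ndufb6 and Ndufb11, accessory membrane subunits of which Ndufb11 is X-linked, rose by 0.96, 0.91, 0.89, 0.84, 0.75 and 0.70. Ndufb7, a twin-cysteine protein like Ndufb10, was the smallest of this arm, with 4748 and 5397 in FSP27-deficient WAT, against 3347 and 3582 in wild-type WAT. Its log2 fold change was 0.55 (adjusted p = 0.055), just outside the threshold, with no overlap between genotypes. Ndufa4, first described with complex I and now counted with cytochrome c oxidase, had 15038 and 17248 in FSP27-deficient WAT, against 8733 and 8782 in wild-type WAT. It rose by 0.88 (adjusted p = 0.0032), near the median of the complex I genes.

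**Figure D2:**
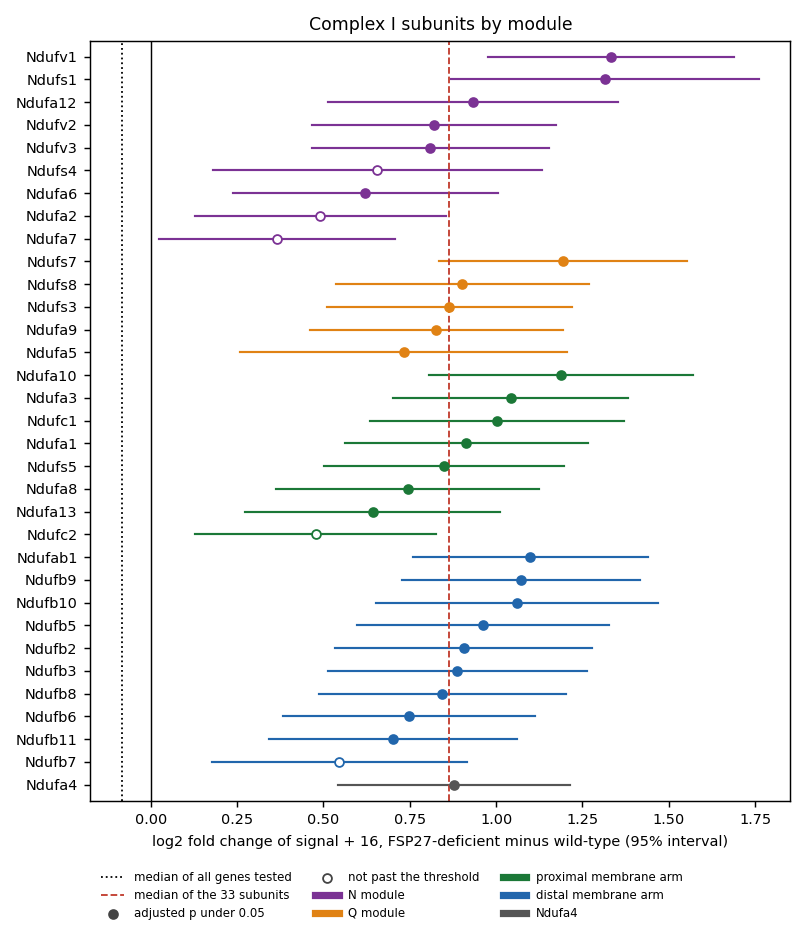
Log2 fold change of signal + 16 for each subunit, FSP27-deficient minus wild-type, with its 95% interval from limma, by module. Filled points passed the threshold and open points did not, the dotted line marks the median of all genes tested (-0.08) and the dashed line that of the 33 subunits (0.86), and 28 of the 33 intervals hold the dashed line.

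With the brightest probe sets, the modules differed little in their medians, and the spread lay within them. With the mean of probe sets the medians ran from 0.62 (N module) to 0.85 (Q module). The peripheral arm (N and Q modules, 11 of 14 higher) had a median log2 fold change of 0.82 and the membrane arm (16 of 18 higher) one of 0.90. With Ndufa6 and Ndufa7 counted in the Q module, the N module had a median of 0.82 and the Q module one of 0.83. The 6 core subunits all rose, with a median of 1.05, and the 26 accessory subunits (21 higher) had a median of 0.84. These are descriptions without a test. Over the 33 genes the SD of the log2 fold changes was 0.23, beside a median SE of 0.17 for a single gene. The 95% interval held the median of the complex for 28 genes. The intervals of Ndufv1 and Ndufs1 lay above it, and those of Ndufa2, Ndufc2 and Ndufa7 below it.

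Same-numbered arrays make 2 comparisons of knockout with wild-type that share no array. All 33 differences were above 0 in either, which follows from the lack of overlap between genotypes given above. Their medians were 0.81 for replicate 1 and 0.93 for replicate 2. Over the 33 genes the differences of both pairs had a Pearson r of 0.53 and a Spearman rho of 0.52, and over all genes tested 0.49 and 0.48. Crossing the numbers gave 0.47 and 0.45 over the 33 genes. Genes are not independent replicates, and the arrays of a genotype share 1 RNA pool. Ndufv1 stood near the top and Ndufa7 near the bottom of both comparisons, whereas Ndufa5 was near the bottom of the first only. In FSP27-deficient WAT the subunits were brighter on the second array than on the first, by a median of 0.13 on the log2 scale where all genes gave 0.006. In wild-type WAT they were brighter on the second array by 0.08, where all genes gave -0.02.

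**Figure D3:**
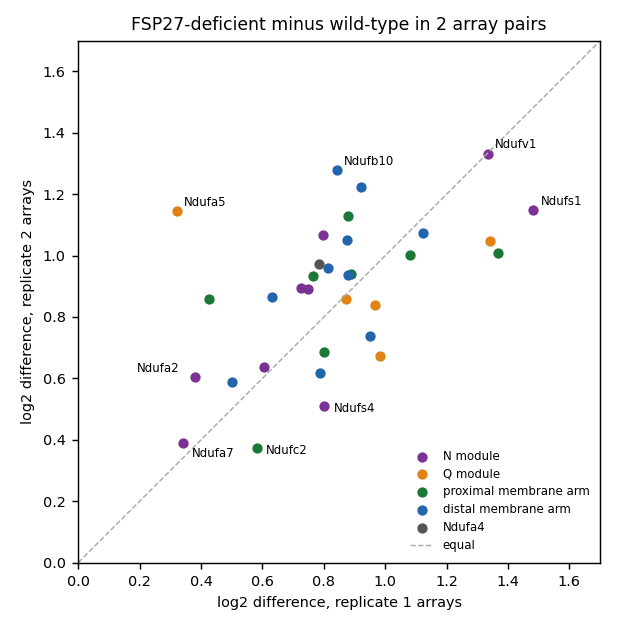
Log2 difference (FSP27-deficient minus wild-type) of each of the 33 subunits between the replicate 1 arrays, horizontally, and between the replicate 2 arrays, vertically, coloured by module. All points lie above 0 on both axes, with medians of 0.81 and 0.93, and Ndufa5 lies farthest above the dashed line of equal values.

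Read probe set by probe set, the picture was the same with more gaps. Of the 63 probe sets of the subunits that reached a mean signal of 100, 46 were called higher and 0 lower in a fit over all 14360 such probe sets, of which 4.81% were called higher. All 63 differences were above 0, with a median log2 fold change of 0.85, beside -0.08 over all probe sets tested. In this larger fit the threshold is harder to pass, and Ndufa5's brightest probe set, called in the fit by gene, missed it (adjusted p = 0.055). Of the 18 subunits with at least 2 tested probe sets, 8 had all of them called higher, 8 had some and 2 (Ndufc2 and Ndufs4) had none.

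Ndufv1 had 3 probe sets, all called, with log2 fold changes of 1.33, 1.15 and 1.06. Ndufs8 had 6, of which 5 were called, between 0.90 and 1.03. The exception was its dimmest, 1434212_at, with 879 and 575 in FSP27-deficient WAT, against 699 and 567 in wild-type WAT, with a log2 fold change of 0.17. Its genotypes overlapped, unlike those of the brighter 5. Likewise Ndufab1 had a dim second probe set, 1428160_at, with 508 and 456 in FSP27-deficient WAT, against 423 and 473 in wild-type WAT, with a log2 fold change of 0.10, far from the 1.10 of its bright one.

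Ndufa12 was split among bright probe sets. Its 1433513_x_at and 1455806_x_at gave 0.93 and 1.10, both called. Its 1418814_s_at had 4099.8 and 4828 in FSP27-deficient WAT, against 4339.9 and 2663 in wild-type WAT, which overlapped, and gave 0.39 (adjusted p = 0.34). Affymetrix marks by the endings _s_at and _x_at that probes are shared among transcripts or may bind others. Such an ending is carried by the brightest probe set of 6 subunits (Ndufa2, Ndufa12, Ndufa13, Ndufab1, Ndufc2 and Ndufs8), whose values are less certain for it.

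Ndufa7 had 5 probe sets, of which 4 were not called, with log2 fold changes between 0.34 and 0.59. The fifth, 1422976_x_at, had 3659 and 7134 in FSP27-deficient WAT, against 2490.4 and 1702 in wild-type WAT, and was called at 1.30 (adjusted p = 0.011). Its 2 knockout arrays were far apart. Ndufb7's dimmer probe set, 1448331_at, had 3475 and 3438 in FSP27-deficient WAT, against 1771 and 2398 in wild-type WAT, and was called at 0.74 (adjusted p = 0.032), though the brighter one was not. The reverse held for Ndufb2 and Ndufb6, whose second probe sets gave 0.60 (adjusted p = 0.079) and 0.58 (adjusted p = 0.066).

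Their arrays did not overlap. Ndufb2's second probe set, 1416834_x_at, had 2560.2 and 3287 in FSP27-deficient WAT, against 1792 and 2035 in wild-type WAT. Ndufb6's second, 1434056_a_at, had 3726 and 3497 in FSP27-deficient WAT, against 2598 and 2245 in wild-type WAT. Ndufa5's second, 1417286_at, had 1961 and 2473 in FSP27-deficient WAT, against 1226 and 1282 in wild-type WAT, and was called at 0.81. The 4 probe sets left out as dim belong to Ndufa10, Ndufa12, Ndufab1 and Ndufb9. Their log2 differences were -0.03, -0.50, 0.49 and 0.40 in that order, and all but that of Ndufab1 overlapped between genotypes. With a gene's value taken as the mean of its probe sets, 26 subunits were called, where 4.97% of all genes were called higher. Ndufa10, Ndufa12 and Ndufab1, each of which has such a dim probe set, lost their calls with log2 fold changes of 0.58, 0.48 and 0.56. Ndufa7, which has none, gave 0.59 instead of 0.37.

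**Figure D4:**
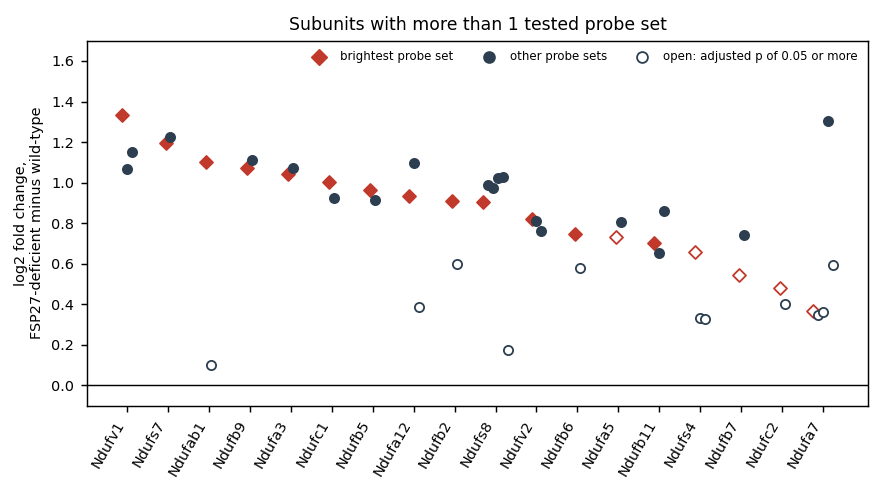
Log2 fold change of each tested probe set of the 18 subunits with more than 1, FSP27-deficient minus wild-type, with red diamonds for the brightest and dark circles for the others. Filled symbols passed the threshold in the fit over 14360 probe sets, all lie above 0, and the lowest belong to Ndufab1 and Ndufs8.

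Outside the list, Ndufb1, a small subunit of the distal membrane arm, was the one further subunit read. Its signals were 446 and 249 in FSP27-deficient WAT, against 347 and 281 in wild-type WAT, far dimmer than the listed subunits and overlapping between genotypes, with a log2 fold change of 0.09 (adjusted p = 0.90). Of 11 assembly factors of complex I, which help to build the enzyme and do not stay in it, 3 rose and 0 fell, with a median of 0.72. Acad9, a scaffold of assembly that derives from a fatty acid oxidation enzyme, had 1503 and 1522 in FSP27-deficient WAT, against 498 and 650.1 in wild-type WAT, and rose by 1.38 (adjusted p = 0.0016). Foxred1 and Tmem70 rose by 1.12 and 0.76. Of the 5 Ndufaf genes none passed, with log2 fold changes from 0.29 for Ndufaf3 to 1.01 for Ndufaf5.

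Most genes of the other complexes that share the membrane with complex I also rose. All 4 genes of complex II rose (median log2 fold change 1.03), all 9 of complex III (median 1.15), 10 of 11 tested of complex IV (median 0.96) and 12 of 18 of complex V, where 1 fell (median 0.74). The median of complex I, 0.86, lay among these, and no difference between the lists was tested. The 1 gene of the complex V list that fell was Atpif1 (log2 fold change -0.998, adjusted p = 0.011 from limma). It encodes an inhibitory factor of that complex rather than a subunit. Genes of the mitochondrial ribosome, which translates the subunits that mitochondrial DNA encodes, had a median of 0.52, and 14 of 74 rose. That count was 0 without wild-type replicate 1 and 4 without wild-type replicate 2, and 9 with the mean of probe sets. Without wild-type replicate 1 the counts were 2 for complex II, 8 for complex III, 7 for complex IV and 6 for complex V. Without wild-type replicate 2 they were 3, 8, 7 and 7 in that order.

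Of 11 tested regulators of mitochondrial genes, 1 rose and 0 fell, beside the 5.79% of all genes called higher. A further one, Ppara, a nuclear receptor for fatty acid oxidation genes, was not tested because its mean signal was under 100, and it had 140.4 and 132 in FSP27-deficient WAT, against 5.25 and 13.9 in wild-type WAT. Ppargc1b, a coactivator of mitochondrial gene expression, had 637 and 586 in FSP27-deficient WAT, against 207 and 138 in wild-type WAT, a log2 fold change of 1.76 (SE 0.28, adjusted p = 0.0021). Its relative Ppargc1a had 209 and 161 in FSP27-deficient WAT, against 205 and 110.3 in wild-type WAT, which overlapped (0.26, adjusted p = 0.78). Esrra, a nuclear receptor that works with both, had 609.7 and 847 in FSP27-deficient WAT, against 449 and 401 in wild-type WAT. Its arrays did not overlap, but 0.74 did not pass (adjusted p = 0.071). Yy1, a zinc finger factor that binds near many transcription starts, had 709 and 983 in FSP27-deficient WAT, against 1378 and 1132 in wild-type WAT, a log2 fold change of -0.57 (adjusted p = 0.13).

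**Figure D5:**
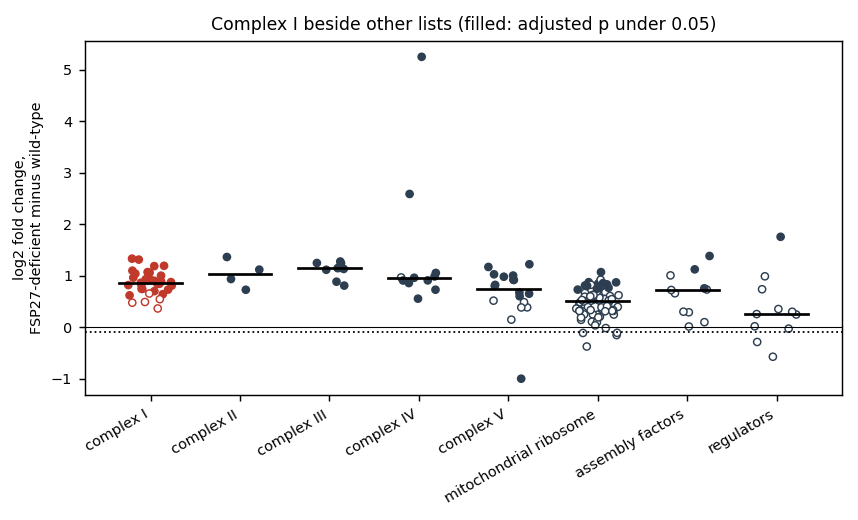
Log2 fold change of every tested gene of complex I (red), of the other respiratory complexes, the mitochondrial ribosome, the assembly factors and the regulators (dark), FSP27-deficient minus wild-type, with bars at the list medians. Filled points passed the threshold, the dotted line marks the median of all genes tested (-0.08), and the bar of complex I lies at 0.86 between those of complexes V (0.74) and IV (0.96).

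Markers of several cell types moved beside the subunits. Of 6 tested markers of brown adipocytes, 5 rose and 0 fell, and the summed signal of the 8 listed was 20352 and 24797 in FSP27-deficient WAT, against 1554 and 1111 in wild-type WAT. Cox8b, a cytochrome c oxidase subunit of brown fat and muscle, made up most of the knockout sums. It had 13491 and 19539 in FSP27-deficient WAT, against 451 and 374 in wild-type WAT. Ucp1, the defining gene, was not tested because its mean signal was under 100. It had 157 and 31.3 in FSP27-deficient WAT, against 18.9 and 12.9 in wild-type WAT, so its knockout duplicates lay far apart. Zic1, a marker of classical brown fat, stayed under 100 on all 4 arrays. Markers of several other cells of the depot went the other way. Macrophage markers had 4 of 6 tested lower and 0 higher, with summed signals of 5213 and 6328 in FSP27-deficient WAT, against 14645 and 13018 in wild-type WAT. Fibroblast markers had 3 of 5 lower and 0 higher, with sums of 14253 and 18089 in FSP27-deficient WAT, against 26430 and 26103 in wild-type WAT. Those of mesothelium, the lining of the depot, had 2 of 4 lower and 0 higher, with 1409.9 and 1006 in FSP27-deficient WAT, against 3149 and 3597 in wild-type WAT.

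In none of these lists did the sums overlap between genotypes. Endothelial markers had 1 of 5 lower, with 4491 and 4924 in FSP27-deficient WAT, against 5908 and 6644 in wild-type WAT. Adipocyte markers had 1 of 6 lower, Lep, and summed to 218980 and 231230 in FSP27-deficient WAT, against 175050 and 211070 in wild-type WAT.

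Skeletal muscle, also rich in complex I, had 2 of its 10 markers past the filter, of which neither was called. The sums of the 10 were 1181 and 1059 in FSP27-deficient WAT, against 1227 and 976 in wild-type WAT. Acta1, skeletal actin, was the brightest, with 502 and 269 in FSP27-deficient WAT, against 702 and 633 in wild-type WAT (adjusted p = 0.087). The other 9, summed after the values were seen, had 679 and 789.6 in FSP27-deficient WAT, against 525 and 343 in wild-type WAT. Acta1 and the other 9 thus lay on opposite sides, in either case without overlap between genotypes.

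Most of those 9 were dim. Ckm, the creatine kinase of muscle, had 137 and 136 in FSP27-deficient WAT, against 25.9 and 68.2 in wild-type WAT. Myh1, a fast myosin, had 138 and 66.3 in FSP27-deficient WAT, against 28.3 and 10.6 in wild-type WAT. Neither overlapped between genotypes, and neither was tested because its mean signal was under 100. The others of the 9 all overlapped between genotypes. Among those, Tnni2 and Mb had a lower mean in FSP27-deficient WAT, and the rest had a higher one. The defining muscle genes Mb and Myh4 stayed under 100 on every array. Of the markers of blood and of the epididymis only 1 each was tested, and neither was called. The epididymis markers summed to 313 and 116 in FSP27-deficient WAT, against 111 and 700 in wild-type WAT, so their duplicates lay far apart. The part that the shift in cell type markers has in the complex I values was not tested.

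The subunits lie on 14 chromosomes, with at most 4 on any of them. Their promoters were searched for short motifs of factors known to act on mitochondrial genes, because the transcripts moved together. RefSeq promoter sequences (GRCm38.p6, 250 bases before to 50 after the start) matched 30 of the 33 subunits with 32 promoters, and Ndufa2, Ndufb9 and Ndufs1 had none. The motifs were AAGATGG (YY1 site), CCGGAAG (GABP/ETS site), GCATGCGC (NRF1 core) and AAGGTCA (ERR site), searched on both strands, and no match overlapped another. At least 1 of them was found in 14 of the 30 subunits, 46.7%, against 34.0% of all tested genes with a promoter and 20.7% of all promoters. Among the genes of complexes II to V it was 20 of 33. The median log2 fold change was 0.85 for the 14 and 0.88 for the other 16. Shares of all promoters count each promoter singly, and the other shares count genes. Counted by gene, the 20.7% was 23.1%. Promoters of the subunits had a median GC content of 59.2%, beside 52.7% over all promoters, which these shares do not take into account.

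The YY1 site was found in 6 of the 30 subunits (20.0%), against 8.67% of tested genes, 6.34% of all promoters and 4 of 33 genes of complexes II to V. The 6 are shown because they share strand and place, all on the strand of the gene and 23 to 39 bases after the start. A site on that strand within the 50 bases after the start was held by 3.06% of tested genes and by 1.3% of all promoters. That strand and window were chosen after the 6 sites were seen, so these shares give no test. The motif also holds ATG, the letters of a start codon. Whether the 6 sites are the start codons of their genes was not tested. Each line shows 30 bases in the direction of the gene with the motif in capitals.
Ndufa3, chr7:3617384-3617413 (+ strand): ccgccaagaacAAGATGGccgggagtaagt
Ndufa9, chr6:126849097-126849126 (- strand): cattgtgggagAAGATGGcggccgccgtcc
Ndufb8, chr19:44555393-44555422 (- strand): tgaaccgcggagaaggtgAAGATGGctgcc
Ndufc1, chr3:51408915-51408944 (- strand): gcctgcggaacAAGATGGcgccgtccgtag
Ndufs4, chr13:114388045-114388074 (- strand): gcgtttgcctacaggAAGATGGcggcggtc
Ndufs7, chr10:80249462-80249491 (+ strand): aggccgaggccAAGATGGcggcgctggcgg
The log2 fold changes of the carriers ran from 0.66 for Ndufs4, which did not pass, to 1.19 for Ndufs7. Between these lay Ndufb8 (0.84), Ndufa9 (0.83), Ndufc1 (1.003) and Ndufa3 (1.04).

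The GABP/ETS site was found in 4 of the 30, 13.3%, against 20.3% of tested genes, 8.86% of all promoters and 13 of 33 genes of complexes II to V. Ndufs3 holds it in each orientation, once on either side of its start. These 5 sites are shown to set them beside the YY1 sites, and a site on the opposite strand appears as CTTCCGG.
Ndufb6, chr4:40279635-40279664 (- strand): tcgtccttgttCTTCCGGtcccctccccta
Ndufb7, chr8:83566727-83566756 (+ strand): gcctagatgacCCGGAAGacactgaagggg
Ndufs3, chr2:90904730-90904759 (- strand): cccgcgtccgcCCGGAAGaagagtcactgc
Ndufs3, chr2:90904702-90904731 (- strand): gcacatttccaCTTCCGGtccgtgcccttg
Ndufs8, chr19:3912741-3912770 (- strand): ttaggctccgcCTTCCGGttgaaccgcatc
They lie 232 and 20 bases before the start in Ndufb6 and Ndufb7, 27 before and 2 after it in Ndufs3, and 16 after it in Ndufs8, so that strand and place vary here.

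The NRF1 core was found in 2 of the 30, against 6.18% of tested genes, 2.71% of all promoters and 7 of 33 genes of complexes II to V. The ERR site was found in 2 of the 30, against 4.02% of tested genes, 4.72% of all promoters and 6 of 33 genes of complexes II to V. The NRF1 cores lie close to the start, 83 bases before it in Ndufa6 and 8 before it in Ndufa8.
Ndufa6, chr15:82354356-82354385 (- strand): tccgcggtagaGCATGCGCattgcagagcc
Ndufa8, chr2:36049328-36049357 (- strand): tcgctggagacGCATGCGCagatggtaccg
A match of letters is a description and no measure of binding. Ndufv1, with the largest log2 fold change (1.33), and Ndufa7, with the smallest (0.37), each held none of the 4 motifs in this window.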

How the data were processed

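Total RNA of gonadal WAT was pooled from 5 mice of each genotype and hybridised in duplicate by the authors. The deposited values are linear signal intensities that the authors made with the Affymetrix GeneChip Operating Software (GCOS), whose version and scaling target no source used here states, and the precision is limited by the 4 arrays. Of 22690 probe sets, 20393 carried 1 gene symbol in the platform annotation, 691 several and 1606 none, and the 64 controls were left out. For each gene the brightest probe set (by its mean over the arrays) was kept, genes with a mean signal under 100 were dropped, and log2(signal + 16) was fitted with limma 3.58.1 in R 4.3.3 (lmFit, eBayes with a trend) and Benjamini-Hochberg adjustment over 8522 genes, threshold 0.05. The fit was tested on simulated data. A second fit took 14360 probe sets singly.

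Values by array are given for core subunits, the largest and smallest change of each module, subunits that did not pass, and probe sets that disagree in their call; of other lists, counts, medians and up to 4 regulators. Probe sets and genes outside this rule (Ndufb1, Ndufa4, Acad9, Atpif1, Ppara and the markers) were named after their values were seen. The members, lists and tests were chosen with earlier results of these data known. Alternatives were other pseudocounts and filters, quantile normalization, median centring, mean of probe sets, no trend, the replicate number as a block and each array left out.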

Additional observations from a re-analysis of the deposited data

How the results depend on the processing

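No subunit changed sign, which only quantile normalization, median centring and the mean of probe sets could have brought about. Log2 fold changes lay between 0.15 and 1.60 over all alternatives, and 0 subunits were called lower. Of the 33, 10 were called in all 12 alternatives with a trend. Quantile normalization called 24, where 5.53% of all genes were called higher. It gave a median log2 fold change of 0.69 (N module 0.61, Q module 0.69, proximal 0.69, distal 0.76), where the median of all genes was -0.01. Centring each array called 29, where 6.95% of all genes were called higher. It gave a median of 1.01 (0.96, 1.01, 1.03 and 1.04 in the same order), where the median of all genes was 0.06. The mean of probe sets gave 0.81 (N module 0.62, Q module 0.85, proximal 0.80, distal 0.80). Without a trend 0 genes and 0 probe sets of complex I were called, the lowest adjusted p of a subunit being 0.071. Pseudocounts of 1 and 64 called 28 each, where 5.74 and 6.07% of all genes were called higher. No filter called 25 (3.12% of all genes), and a mean signal of at least 200 called 29 (7.71%). With 1 array left out, genes called ranged from 15 to 30, probe sets called from 30 to 50, the median from 0.81 to 0.92, and the module medians from 0.68 to 0.87 (N), 0.85 to 0.92 (Q), 0.84 to 0.97 (proximal) and 0.86 to 0.98 (distal); the lone array of a genotype then takes its spread from the other genotype. With the replicate number as a block 32 genes were called, where 7.44% of all genes were called higher. The deviations of same-numbered arrays had an r of 0.07 over all genes. That value cannot show whether same-numbered arrays share a batch, and the labels give only the replicate number.

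The duplicates share 1 pool, so no value here measures the spread between mice. Depth in reads does not apply to arrays. Probe sets of 1 subunit that differed in call (Ndufa12, Ndufab1 and Ndufs8 among others) limit how closely a single value can be read.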
